A study of Mus musculus with 24 samples.

Results

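The genes described here are 9 genes that B cells express: Cd22, Cd79a, Cd79b, Ms4a1, Pax5, Blk, Cr2, Cd37 and Pou2af1. They were chosen by name, and every probe whose gene name on the array equalled 1 of them was taken, which gave 13 of 55681 probes and 9 of 34836 gene names. The study compared male NZO mice (strain NZO/HiBomDife, the New Zealand Obese mouse, which becomes obese and diabetic) with male B6 mice (C57BL/6, lean and resistant to diabetes by the series title). Both strains received the same diet, with 45% fat, until week 6, and the labels give the mice as 6 weeks of age at sampling without saying when the diet began. RNA with an integrity number above 8 was taken from skeletal muscle (labelled quad in the sample titles), brown fat (BAT) and the gonadal depot of white fat (gWAT). Each of the 6 combinations of strain and tissue has 4 one-colour Agilent arrays. The B6 muscle array 011 was left out by the rule that defines the gene group, so 23 of 24 arrays were used. The sample labels do not say which arrays come from separate animals, and the spread behind the p-values, which is that between arrays, may be technical.

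B cells recognise antigen through a membrane immunoglobulin that signals through its partner chains CD79A and CD79B. The signal is tuned by co-receptors: CD22 binds sialic acid and dampens it, while complement receptor 2, encoded by Cr2, amplifies it. B cells are found in white fat, where their number is known to rise in obesity, and visceral fat also holds small lymphoid clusters. A level here is the log2 of the background-corrected probe signal minus the 75th percentile of that array, and a probe counts as measured where the scanner software called it well above background. Levels were compared within a probe and not between probes. As a check of the name of the group, Cd79a, Cd79b and Ms4a1, which mark B cells, were well above background on all gWAT arrays. Pax5 and the immunoglobulin gene Ighm were not well above background on any of them. On NZO gWAT array 012 another immunoglobulin gene, Iglv1, was at 1.71, against a mean of -2.41 on the other NZO gWAT arrays. Ighm was at -7.06 there, against -7.05. The Ighm probe alone therefore does not tell whether immunoglobulin RNA was present.

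The array carries 1 probe each for Cd22, Cd79b, Ms4a1, Blk and Pou2af1, and 2 each for Cd79a, Pax5, Cr2 and Cd37. For each gene the probe with the higher mean over the 23 arrays stands for it below. Each probe has 60 bases, and the first 30 are shown for the genes on which the results turn, since the Cd22 probe differs in sequence from the rest. Capitals mark a repeat of a 4-base unit, which covers 18 bases of the Cd22 probe and is in none of the other 12 probes.

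Cd22, chr7:31651249-31651308, minus strand: gaaaaatgaaaAACCAACCAACCAACCAAa
Cd79a, chr7:25686823-25686882, plus strand: cctcctcccagatctgtcatggccacttaa
Cd79b, chr11:106172780-106172839, minus strand: agagacttgttggaatctgcaaatggactc
Ms4a1, chr19:11325367-11325426, minus strand: gctgtgctttgagattctttccaaatggca
Cd37, chr7:52489002-52489061, minus strand: tctgtctgccacctcccacatgacacctca
Cd37 second probe, chr7:52490054-52490113, minus strand: tggctgcacaacaatatcatctccatagtg

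Coordinates are those of the scanner files in build mm9, and exons of that build were not used here. Across the array, 80 of 55681 probes (0.144%) hold a repeat of a 4-base unit that runs for 16 bases or more. Of the Cd22 probe, 41.7% of the bases were G or C, against a median of 43.3% over all probes. The main Cd37 probe lies 13 bases from a probe of Tead2 on the opposite strand.

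Over the 24 arrays the 75th percentile of the signal lay between 134 and 360 units, and 51.9 to 59.3% of probes were well above background. None of the member probes was saturated or flagged as an outlier spot. The marker genes of the tissues followed the labels: the summed level of 8 adipocyte genes was 1646 to 2455 in NZO gWAT and 2144 to 2581 in B6 gWAT, against 99.1 to 215 in NZO muscle and 156 to 203 in the B6 muscle arrays used (sums of linear signal over the 75th percentile). The left-out B6 muscle array had an adipocyte sum of 833. Among the arrays used, NZO gWAT 012 had an adipocyte sum of 1756, between those of the other NZO gWAT arrays, but this array stood apart for several B cell genes. It was the only array of its group on slide 2 of the 6 slides, as NZO gWAT 007 was on slide 4. For the strain comparison in gWAT, the numbers of genes that passed are given with and without 012, and single genes without it only in part.

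**Figure D1:**
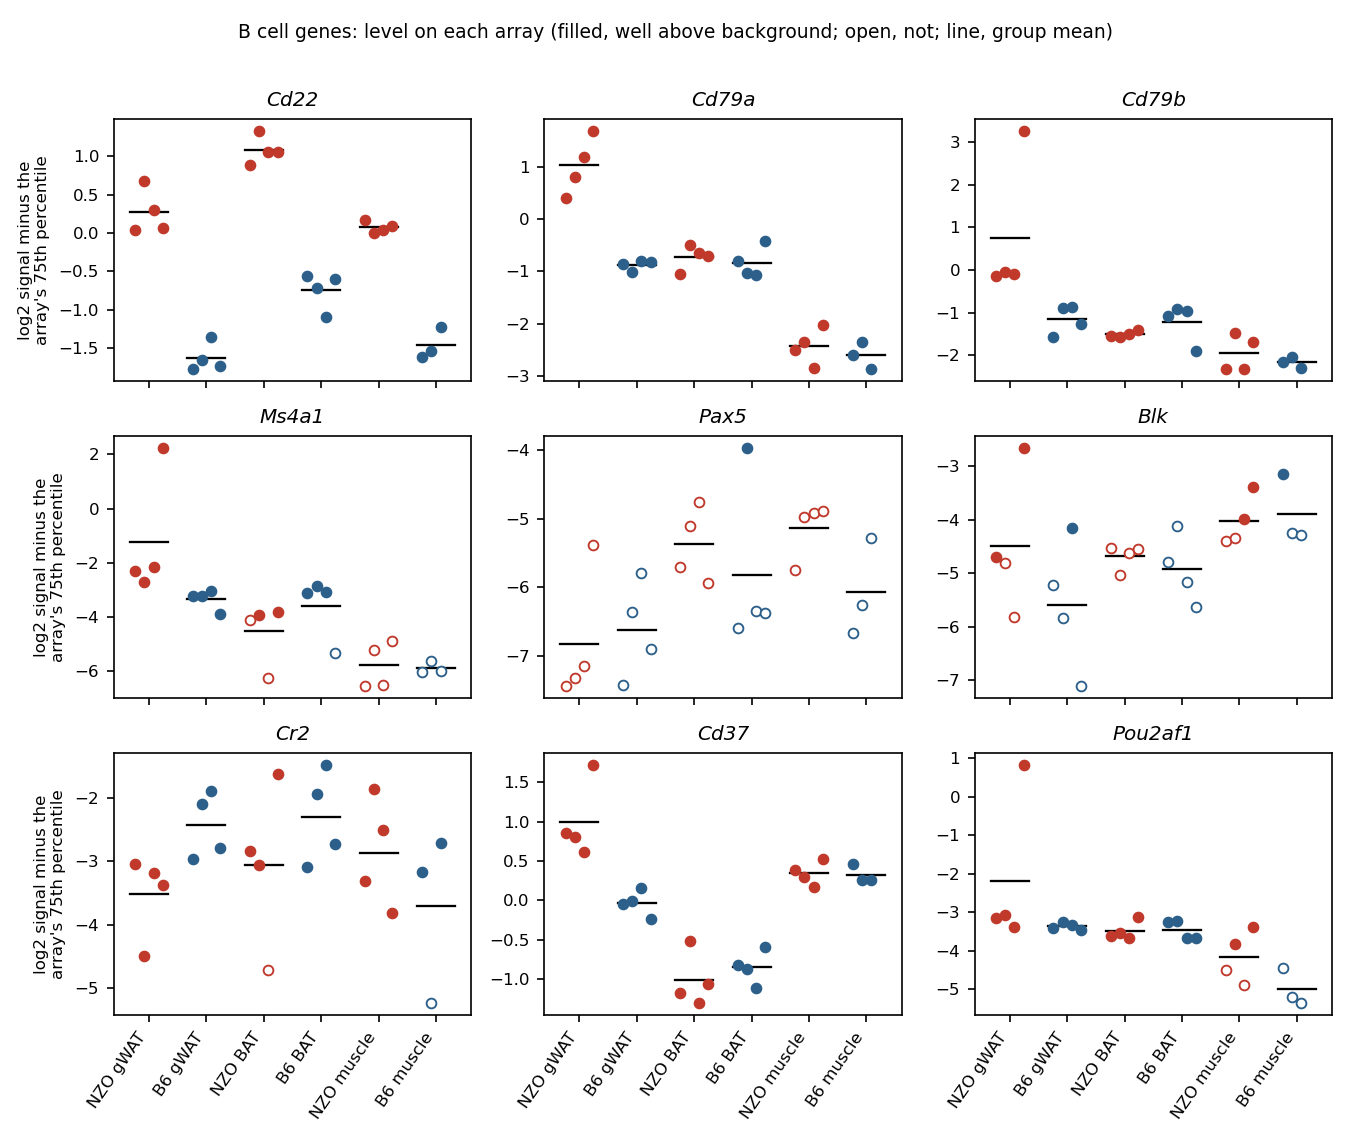
Level of each B cell gene on each of the 23 arrays used (y axis, log2 signal minus the array's 75th percentile), in NZO (red) and B6 (blue) gWAT, BAT and muscle. Filled points were well above background, open points were not, and lines are group means. Cd22 is separated between the strains in all 3 tissues. In gWAT, Cd79a, Cd79b, Ms4a1 and Cd37 are separated too, as is Cr2 in the opposite direction. There, 1 NZO array (012) is high for Cd79b, Ms4a1 and Pou2af1.

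In gWAT, 3 of the 7 B cell genes that could be tested were higher in NZO than in B6 mice: Cd22, Cd79a and Cd37, by 1.90, 1.90 and 1.03 on the log2 scale, where 31.6% of all genes passed. Cd79b and Ms4a1 had differences as large, 1.90 and 2.11, but array 012 spread them so widely that they missed the threshold. Without 012 the differences of Cd79b and Ms4a1 fell to 1.06 and 0.95, against 1.97 for Cd22 and 1.68 for Cd79a. All 5 then passed, as did 30.4% of all genes. Cr2 had the opposite sign, at -1.08, and did not pass. Pax5 and Blk could not be tested. In bulk tissue, more B cells, more RNA per B cell and RNA from other cells cannot be told apart.

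The inhibitory co-receptor Cd22 had levels of 0.04, 0.68, 0.30 and 0.06 on the NZO gWAT arrays 003, 007, 009 and 012, against -1.78, -1.65, -1.36 and -1.74 on the B6 gWAT arrays 009, 010, 011 and 015. The strains did not overlap, and 012 lay within the range of the other NZO arrays. The difference was 1.90 (SE 0.17, limma with Benjamini-Hochberg adjustment over all genes, adjusted p = 0.00012), or 3.74-fold.

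Of the chains that pass on the receptor's signal, Cd79a had levels of 0.41, 0.81, 1.19 and 1.69 on the NZO arrays in the same order, against -0.85, -1.01, -0.80 and -0.82 on the B6 arrays. All 4 NZO arrays were above all B6 arrays, with 012 the highest, and the difference was 1.90 (SE 0.25, limma adjusted p = 0.000853). The second Cd79a probe did not show this difference: it averaged -4.26 ± 1.44 in NZO gWAT and -4.17 ± 0.53 in B6 gWAT (SD, n = 4 each), was well above background on 2 of 4 NZO and 3 of 4 B6 arrays, and could not be tested. Its partner Cd79b had levels of -0.13, -0.06, -0.08 and 3.27 on the NZO arrays, against -1.57, -0.89, -0.86 and -1.27 on the B6 arrays. The 4 NZO arrays again lay above all B6 arrays, but 3 of them were close together and 012 was far above them. The difference was 1.90 with an SE of 0.74 (limma adjusted p = 0.0823). Without 012 it was 1.06 (SE 0.19, limma adjusted p = 0.00683). With all arrays it also passed when arrays were centred on their median (2.16, limma adjusted p = 0.0279), when all tissues shared a fit (limma adjusted p = 0.0066) and with the slide as a fixed block (limma adjusted p = 0.0113).

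Ms4a1 encodes CD20, a membrane protein of mature B cells. Its levels were -2.30, -2.73, -2.16 and 2.25 on the NZO arrays, against -3.23, -3.22, -3.03 and -3.90 on the B6 arrays. The strains did not overlap, and 012 stood more than 4 log2 units above the other NZO arrays. The difference was 2.11 (SE 1.01, limma adjusted p = 0.146), and without 012 it was 0.95 (SE 0.24, limma adjusted p = 0.0247).

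The tetraspanin Cd37, a membrane organiser found on B cells and on other leukocytes, had levels of 0.86, 0.81, 0.61 and 1.72 on the NZO arrays, against -0.04, -0.0071, 0.16 and -0.23 on the B6 arrays. The strains did not overlap, and the difference was 1.03 (SE 0.24, limma adjusted p = 0.0123). The second Cd37 probe gave 1.28 (limma adjusted p = 0.0112 over all probes).

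Cr2 was the member with the opposite sign. It had levels of -3.04, -4.50, -3.18 and -3.38 on the NZO arrays, against -2.96, -2.11, -1.90 and -2.79 on the B6 arrays. All NZO arrays were below all B6 arrays, though by little for NZO 003 and B6 009, and the difference of -1.08 (SE 0.37) had a limma adjusted p of 0.054. It passed with the slide as a random block (-1.03, limma adjusted p = 0.0477) and without NZO 003 or B6 009 (limma adjusted p = 0.0493 and 0.0482). In the other 14 of 17 alternatives it did not pass. Over all 17 the difference lay between -1.26 and -0.36, with a limma adjusted p of up to 0.352. The second Cr2 probe was well above background on 0 of 4 NZO and 1 of 4 B6 gWAT arrays.

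Pou2af1, a transcriptional coactivator of B cells, had levels of -3.13, -3.06, -3.37 and 0.84 on the NZO arrays, against -3.39, -3.25, -3.33 and -3.47 on the B6 arrays. Apart from 012 the strains overlapped, and the difference was 1.18 (SE 0.87, limma adjusted p = 0.329), or 0.17 without 012. Blk, a kinase of the Src family that B cells use, was well above background on 2 of 4 NZO and 1 of 4 B6 gWAT arrays. Pax5, the transcription factor that holds cells in the B lineage, was well above background on none of the gWAT arrays with either probe.

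The share of genes that passed was taken over the 21539 tested in gWAT, and the strains did not overlap for 35.9% of them. The members passed in 3 of 7 cases and did not overlap in 6 of 7. Their median difference was 1.90, against -0.00403 over all genes tested. Without 012 the members' median difference was 0.95. A difference larger than that of Cd22 towards NZO was seen for 2.23% of genes.

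Other genes of B cells in gWAT were read from lists. Of 26 other B lineage genes, 22 were on the array and 16 were tested, of which 5 were higher in NZO and none was lower. Cd72, a co-receptor of the same inhibitory kind as Cd22, differed by 2.91 (adjusted p = 0.000228), the transcription factor Spib by 2.27 (adjusted p = 0.0433; 1.45 without 012) and the transcription factor Bcl11a by 1.58 (adjusted p = 0.0212). Without 012 the same list had 5 genes higher and 2 lower. Of these, Ly6d was at -1.98, with 2 of the 3 NZO arrays well above background. H2-DMb2 was well above background on none of the 3, so it was at least 2.03-fold lower in NZO gWAT. The median of the list was 0.89 with 012 and 0.44 without it. Ighm, the heavy chain of the membrane receptor, was well above background on none of the arrays used.

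Genes that carry the receptor's signal inside the cell were read likewise. Of 18 B cell receptor signalling genes, 15 were higher in NZO gWAT and none was lower, with a median of 0.87. The adaptor Blnk differed by 2.09 (adjusted p = 0.000325) and the exchange factor Vav1 by 1.69 (adjusted p = 0.000434). Macrophages and other leukocytes also express many genes of this list. Of 9 plasma cell genes 4 were higher, among them Derl3 by 2.38 and Sdc1 by 1.06. Without 012, 14 of the 18 signalling genes and 3 of the 9 plasma cell genes were higher, and none was lower.

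Markers of other leukocytes differed in the same tissue. Of 15 macrophage genes 12 were higher in NZO gWAT and 1 was lower, among them Gpnmb by 5.03, Trem2 by 4.41 and Msr1 by 2.97, while Itgam was at -0.83. Their summed level was 216 to 264 in NZO gWAT and 80.7 to 97.5 in B6 gWAT. All 9 pan-leukocyte genes were higher, Ptprc (CD45) by 0.96 (adjusted p = 0.00753), and so were 6 of 7 natural killer cell genes, among them Ncr1 by 2.28. Of 10 T cell genes, 1 was lower, Cd247 at -0.74, and none was higher. Without 012 the counts were 12 macrophage, 9 pan-leukocyte and 5 natural killer cell genes higher, and 1 macrophage and 2 T cell genes lower. The part of these cells in the member differences was not tested.

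NZO gWAT 012 differed from the other 3 NZO gWAT arrays in many B lineage genes. It exceeded their mean by 4.65 for Ms4a1, 4.03 for Pou2af1, 3.36 for Cd79b, 0.96 for Cd37 and 0.89 for Cd79a, while for Cd22 it was 0.28 below (-0.28) and for Cr2 0.20 above. The 13 other B lineage genes that were well above background on all 4 NZO gWAT arrays were all above the mean of the other 3, by 0.57 to 4.08, with a median of 1.73. These included Spib at 3.28 and Ltb, a cytokine of lymphoid tissue, at 2.41.

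Over all 21531 genes the median excess of array 012 was -0.06, and 0.311% of genes exceeded 2, against 0.0139 to 0.989% on the other 22 arrays measured in the same way. The gene with the highest excess of all was Cxcl13, a chemokine that draws B cells into follicles, at 5.42. The other 4 tested genes of its list, lymph node stroma and follicular dendritic cells, lay between -0.32 and 0.26. Glycam1, also of that list, could not be tested. Its level was -2.03 on array 012, against -7.43 to -5.15 on the other 3. All 6 genes of the list on the array were well above background on 012, and 5 on each of the other 3. Of 9 plasma cell genes, Mzb1 and Igj exceeded the mean of the other 3 arrays by 4.04 and 3.73, while the median of the list was 0.37 and Tnfrsf17 was at -0.33. T cell genes had a median excess of 0.98, macrophage genes 0.30 and adipocyte genes -0.31. Erythroid genes had a median excess of 1.09, with a summed level of 425 on array 012 against 123 to 292 on the other 3, and their part in the member values was not tested.

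**Figure D2:**
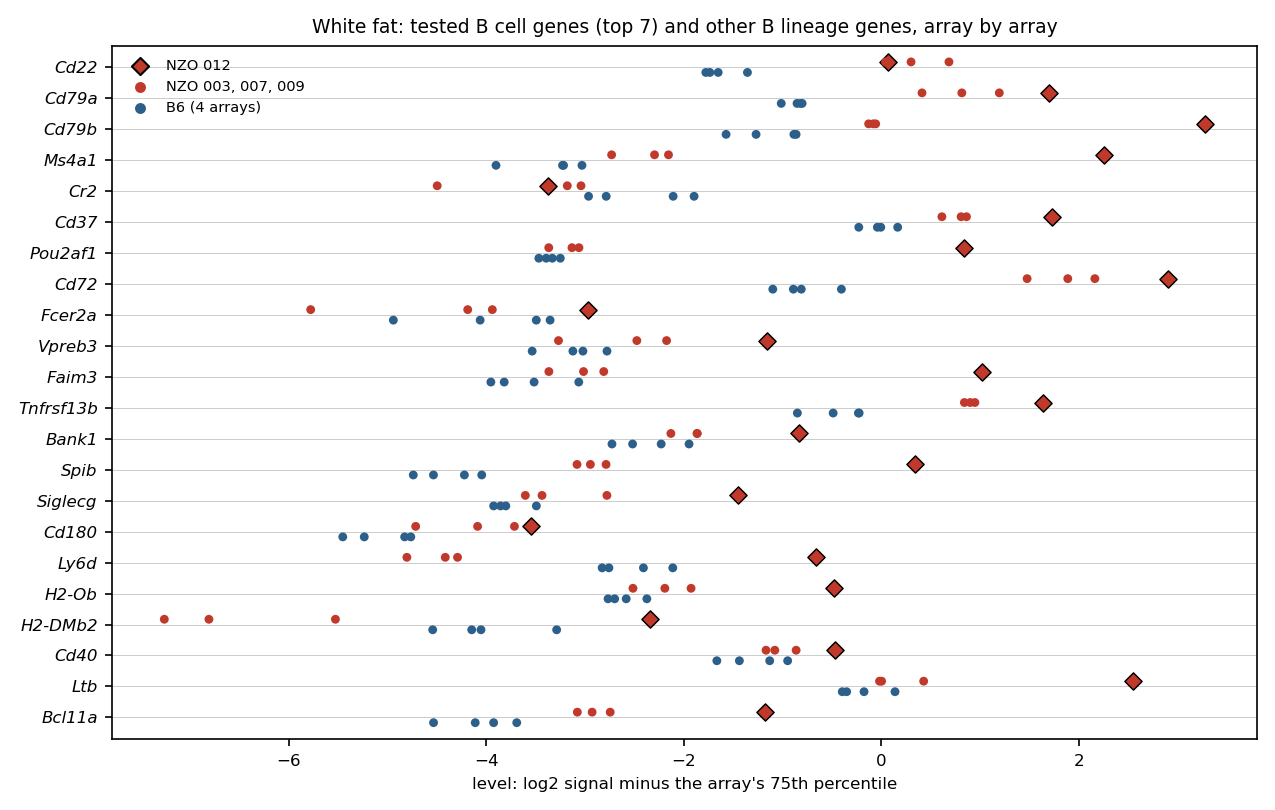
Levels in gWAT of the 7 tested B cell genes (top) and 15 other B lineage genes (x axis, log2 signal minus the array's 75th percentile). Red points are NZO arrays 003, 007 and 009, red diamonds NZO array 012 and blue points the 4 B6 arrays. The diamond lies far to the right of the other NZO points for Cd79b, Ms4a1, Pou2af1, Faim3 and Spib, and among them for Cd22 and Cr2.

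In BAT, Cd22 was the only 1 of the 6 tested members to differ between the strains. It had levels of 0.89, 1.34, 1.05 and 1.06 on the NZO BAT arrays 003, 007, 009 and 011, against -0.55, -0.72, -1.09 and -0.60 on the B6 BAT arrays 009, 010, 011 and 015. The strains did not overlap, and the difference of 1.83 (SE 0.15, limma adjusted p = 0.000135) was close to that in gWAT. Of all 20716 genes tested, 15.7% passed, 22.1% did not overlap and 1.09% had a larger difference towards NZO.

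Cd79a had levels of -1.05, -0.50, -0.66 and -0.71 on the NZO BAT arrays, against -0.80, -1.03, -1.08 and -0.42 on the B6 BAT arrays. The strains overlapped, with a difference of 0.10 (SE 0.18). Cd79b had levels of -1.54, -1.58, -1.49 and -1.42 on the NZO BAT arrays, against -1.09, -0.92, -0.96 and -1.90 on the B6 BAT arrays. All but 1 of the B6 arrays lay above the NZO arrays, and the difference was -0.29 (limma adjusted p = 0.42). Without B6 015 it was -0.52 (limma adjusted p = 0.0132), which made 2 members called. The other members overlapped too: Cd37 was at -0.17, Cr2 at -0.75 and Pou2af1 at -0.03 (limma adjusted p = 0.494 to 0.922). Ms4a1 was well above background on 2 of 4 NZO and 3 of 4 B6 BAT arrays, Blk on none, and Pax5 on 1, B6 010.

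None of the 11 tested other B lineage genes passed in BAT by limma, and 3 of them had an unadjusted p under 0.05. Of 17 receptor signalling genes, 1 passed, Pik3cd at -0.37, and none of 8 pan-leukocyte genes passed by limma, with 1 at an unadjusted p under 0.05 and Ptprc at -0.01. Natural killer cell genes were higher in NZO BAT for 5 of 7, among them Gzma by 2.16. The 8 skeletal muscle fibre genes were all lower in NZO BAT, with a summed level of 1.52 to 7.98 on NZO arrays and 218 to 896 on B6 arrays. The part of that muscle RNA in the member values was not tested.

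In muscle, Cd22 again was the only member to pass, of 5 tested. Its levels were 0.17, 0.0022, 0.04 and 0.10 on the NZO muscle arrays 003, 007, 009 and 011, against -1.62, -1.54 and -1.23 on the B6 muscle arrays 009, 010 and 015. The strains did not overlap, and the difference was 1.54 (SE 0.12, limma adjusted p = 0.0005). It was smaller, at 0.90, with normexp background correction, and passed there too. Of 20806 genes tested, 10.7% passed, 27.5% did not overlap and 1.59% had a larger difference towards NZO.

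Cd79a had levels of -2.50, -2.35, -2.86 and -2.03 on the NZO muscle arrays, against -2.60, -2.34 and -2.88 on the B6 muscle arrays. Here the strains overlapped almost fully, with a difference of 0.17 (SE 0.22). Cd79b differed by 0.21 (SE 0.24), Cd37 by 0.02 (SE 0.12) and Cr2 by 0.83 (SE 0.70), all with overlap and with limma adjusted p of 0.497 to 0.93. Ms4a1 and Pax5 were well above background on none of the 7 arrays. Pou2af1 was so on 2 of 4 NZO and 0 of 3 B6 arrays, and Blk on 2 of 4 NZO and 1 of 3 B6 arrays.

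Of 9 other B lineage genes tested in muscle, 2 were higher in NZO, Ltb by 1.15 and Cd72 by 0.65, and none was lower. Of 17 receptor signalling genes 1 was higher, Ifitm1 by 1.03, and 1 was lower. None of 8 pan-leukocyte genes passed by limma, 1 had an unadjusted p under 0.05, and Ptprc was at -0.000931.

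**Figure D3:**
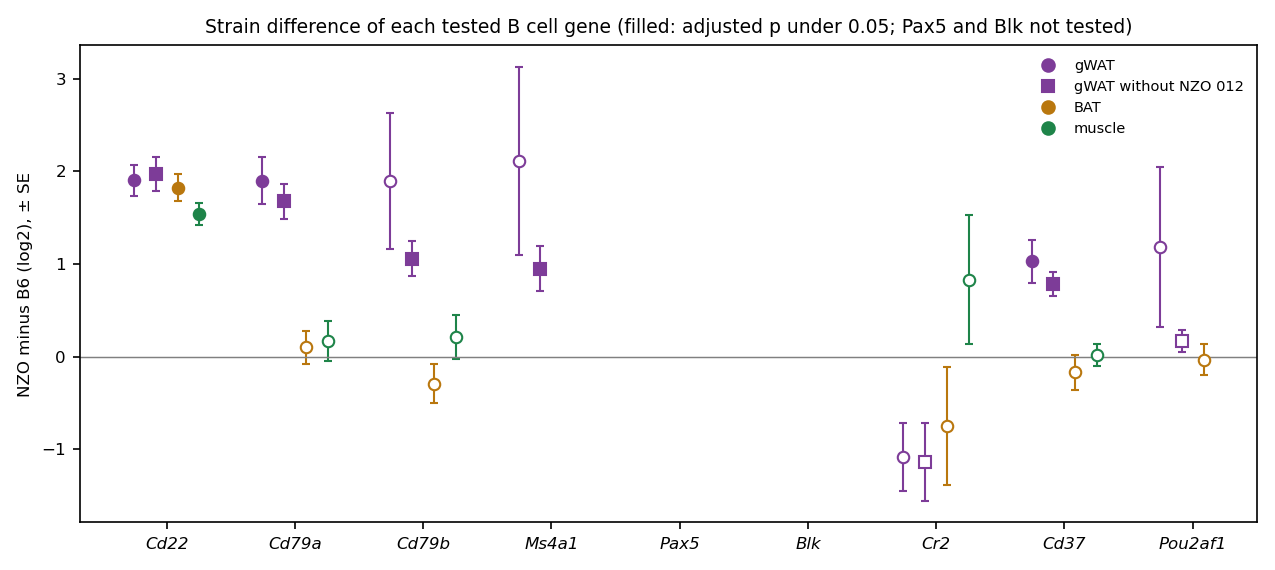
Strain difference (y axis, NZO minus B6 on the log2 scale, with SE) of each tested B cell gene in gWAT with all arrays, gWAT without NZO 012, BAT and muscle. Filled symbols passed at an adjusted p under 0.05. Cd22 lies between 1.54 and 1.97 in all 4 fits, while Cd79a and Cd37 lie between -0.17 and 0.17 in BAT and muscle.

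Whether the strain difference itself depended on the tissue was tested with an interaction over all 6 groups. For Cd22 it was not detected: BAT minus gWAT was -0.08 (SE 0.21), muscle minus gWAT -0.36 (SE 0.22) and muscle minus BAT -0.29 (SE 0.22), with limma adjusted p of 0.85, 0.264 and 0.523. For Cd79a the strain difference was smaller in BAT than in gWAT by 1.80 (interaction -1.80, SE 0.32, limma adjusted p = 0.000634), and muscle minus gWAT was -1.73 (SE 0.33, limma adjusted p = 0.00129). For Cd37 the same contrasts were -1.20 (SE 0.28, limma adjusted p = 0.00546) and -1.01 (SE 0.29, limma adjusted p = 0.0202). The second of these missed the threshold without B6 muscle 009, at -0.94 (limma adjusted p = 0.0524).

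Cd79b passed for BAT minus gWAT at -2.19 (SE 0.73, limma adjusted p = 0.0419), and at -1.35 without NZO gWAT 012. The call was lost in 14 of 28 alternatives, with an adjusted p between 0.0066 and 0.0722 over them. For Ms4a1 BAT minus gWAT was -3.04 (SE 1.20, limma adjusted p = 0.0826), and -3.62 to -1.88 in the fits that left out single arrays. Its size is uncertain, since Ms4a1 was well above background on 2 of 4 NZO and 3 of 4 B6 BAT arrays. In all, 3 of 7 members passed for BAT minus gWAT and 2 of 7 for muscle minus gWAT, where 19.4% and 20.7% of all genes passed. None of 6 passed for muscle minus BAT by limma, none had an unadjusted p under 0.05, and 6.32% of all genes passed. The 3 contrasts share arrays.

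Whether Cd22 differed more than the other B cell genes was read on each array from its level minus the median level of the other tested members. Only differences of this quantity between groups carry meaning, since the probes differ. In gWAT it was 1.25, 2.08, 1.42 and -1.65 on NZO arrays 003, 007, 009 and 012, against 0.49, -0.09, 0.02 and 0.29 on B6 arrays 009, 010, 011 and 015. Array 012 alone fell below the B6 arrays, and the other 3 lay above them.

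The means differed by 0.60 between NZO and B6 gWAT, and by 1.41 without 012. In BAT this quantity was 2.44 to 2.92 in NZO and 0.02 to 1.30 in B6, a difference of 2.05. In muscle it was 1.67 to 2.59 in NZO and 0.65 to 1.28 in B6, a difference of 1.27. In BAT and muscle the strains did not overlap. Over the same arrays the median of the other members itself differed between NZO and B6 by 1.30 in gWAT (0.57 without 012), -0.23 in BAT and 0.27 in muscle. Set against the other B lineage genes instead, Cd22 differed by 1.06 in gWAT (1.72 without 012), 2.04 in BAT and 0.80 in muscle. The median of those genes itself differed by 0.84 in gWAT (0.25 without 012), -0.21 in BAT and 0.74 in muscle. No test was made on these scores.

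**Figure D4:**
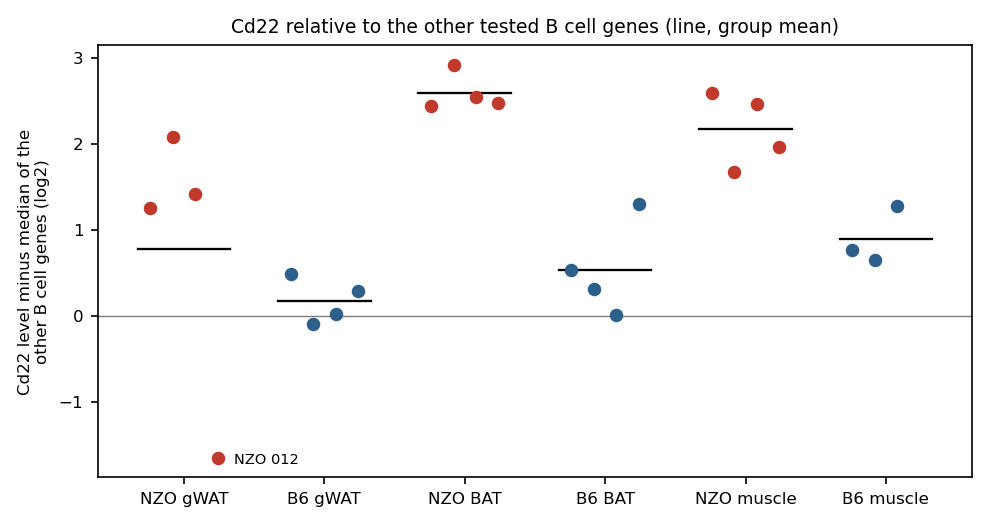
Cd22 level minus the median level of the other tested B cell genes on each array (y axis, log2 units), in NZO (red) and B6 (blue) gWAT, BAT and muscle, with group means as lines. NZO points lie at 2.44 to 2.92 in BAT and 1.67 to 2.59 in muscle, above all B6 points, and in gWAT array 012 lies at -1.65 below every other point.

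The repeat in the Cd22 probe led to a search for other probes that share its sequence, made after the Cd22 values were seen. Of all probes, 7 share a run of 15 or more bases with it. The 3 with the longest runs are shown over the part that holds the shared run, which is in capitals.

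Banp, bases 4 to 33, chr8:124549862-124549921, plus strand: caaccAACCAACCAACCAACCAAACcagag
Gm8479, bases 31 to 60, chr6:65279004-65279063, plus strand: aatagAAAACCAACCAACCAACCAAccaac
Iqcg, bases 31 to 60, chr16:33016364-33016423, minus strand: gaaaccaaccAAACCAACCAACCAACCAAc

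No member probe other than that of Cd22 shares 20 bases with any other probe. The Banp and Gm8479 probes share 20 bases with Cd22, Iqcg 19 and Rnf165 18. The Banp probe differed between NZO and B6 by 1.45 in gWAT, 0.95 in BAT and 1.04 in muscle, each past the threshold (limma adjusted p over all probes = 0.000809, 0.000187 and 0.0019). A second Banp probe without the run gave -0.09, -0.59 and 0.08, none past the threshold (limma adjusted p = 0.311 to 0.88), so the 2 Banp probes disagreed.

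Gm8479 differed by 1.04 in gWAT and 1.36 in BAT, both past the threshold, and by 0.74 in muscle (limma adjusted p = 0.0799). Rnf165 differed by 0.58 in gWAT (limma adjusted p = 0.0534), 1.35 in BAT (limma adjusted p = 0.00153) and 0.58 in muscle (limma adjusted p = 0.133). Its second probe, without the run, was also higher in NZO gWAT, by 0.71. Iqcg differed by 0.60, 0.58 and -0.10, none past the threshold. The other 3 probes share 15 to 17 bases: Atn1 and Tspan18 did not pass in any tissue, and an unnamed probe was lower in NZO gWAT and BAT, at -1.64 and -1.11.

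Over the 23 arrays the level of the Banp probe followed that of Cd22 with Pearson r = 0.95, and 6 of 33393 probes had a higher r. For Gm8479 r was 0.92 and for Rnf165 0.87, while it was 0.53 for Iqcg, 0.39 for Tspan18, -0.31 for Atn1 and -0.10 for the second Banp probe. These points share strain and tissue, so r describes them and was not tested. The part of the shared sequence in the Cd22 difference was not tested, and the array has no second Cd22 probe.

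**Figure D5:**
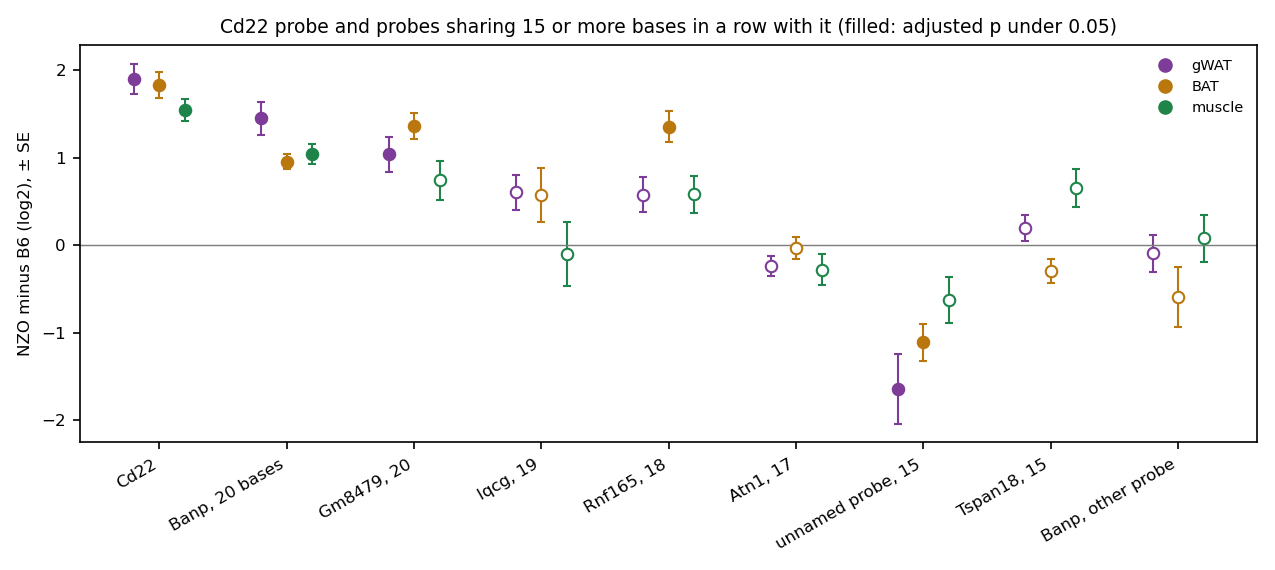
Strain difference (y axis, NZO minus B6 on the log2 scale, with SE) in gWAT, BAT and muscle of the Cd22 probe, of the 7 probes that share 15 or more bases in a row with it, and of the second Banp probe, which has no such run. Filled symbols passed at an adjusted p under 0.05. The Banp probe with the run lies at 0.95 to 1.45 and the second Banp probe at -0.59 to 0.08.

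The genes whose level followed Cd22 most closely over the 23 arrays, among 23262 genes, were Tescl (r = 0.97), Hddc3 (0.97), Scyl2 (0.96), 1700001P01Rik (0.95) and Banp (0.95). Among the members, Cd79a came highest, at rank 3974 with r = 0.31, followed by Pou2af1 at rank 6685. Cd79a itself was followed most closely by Lbh, Cstb, an unnamed probe, Oasl1 and Cd6, all with r of 0.95 to 2 decimals. Ms4a1 and Cd79b followed it with r = 0.82 and Pou2af1 with 0.78, while Cd22 stood at rank 7194. These r also describe arrays that share strain and tissue.

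Across tissues the order of the levels differed among the members. In NZO mice Cd22 was highest in BAT, at 1.09 ± 0.18 (SD, n = 4), followed by gWAT at 0.27 ± 0.30 and muscle at 0.08 ± 0.07. BAT was above muscle by 1.01 (limma adjusted p = 6.7e-06). gWAT was at -0.81 against BAT (limma adjusted p = 9.13e-05), while gWAT and muscle did not differ beyond their spread (0.19, limma adjusted p = 0.252). Under centring on the array median gWAT against BAT was -0.39 (limma adjusted p = 0.0573) and gWAT against muscle 0.63 (limma adjusted p = 0.00287), so this part of the order rests on the scaling. In B6 mice BAT was also highest, at -0.74 ± 0.24 (n = 4), followed by muscle at -1.46 ± 0.21 (n = 3) and gWAT at -1.63 ± 0.19 (n = 4). There gWAT against BAT was -0.89 and BAT against muscle 0.72, both past the threshold, while gWAT and muscle did not differ beyond their spread (-0.17).

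Cd79a had its highest level in NZO gWAT, at 1.03 ± 0.55. In NZO mice gWAT exceeded BAT by 1.76 and muscle by 3.46, and BAT exceeded muscle by 1.71. In B6 mice gWAT and BAT did not differ beyond their spread (-0.04), and both exceeded muscle, by 1.73 and 1.77. Its second probe did not follow this: gWAT against BAT in NZO was -0.47 (limma adjusted p = 0.439), at levels near or below background on part of the arrays.

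Cd79b and Ms4a1 were higher in NZO gWAT than in NZO BAT, by 2.26 and 3.30, and without NZO gWAT 012 by 1.42 and 2.14. Ms4a1 was well above background on only 2 of the 4 NZO BAT arrays, so its size of difference is uncertain. Against muscle, which had no Ms4a1 signal well above background, Ms4a1 was at least 10.8-fold higher in NZO gWAT (at least 4.81-fold without 012) and at least 2.02-fold higher in B6 gWAT. For this bound each dim array was given its Ms4a1 signal or, where that was lower, the weakest signal that was well above background on that array. Pou2af1 was higher in gWAT than in muscle by 1.97 in NZO (0.96 without 012), where 2 of 4 muscle arrays measured it, and at least 1.84-fold in B6 (limma adjusted p = 0.0352), where 6 of the fits that left out an array lost the call.

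Cd37 by its main probe was higher in gWAT than in BAT by 2.01 in NZO and 0.81 in B6, and lower in BAT than in muscle by 1.36 in NZO (BAT minus muscle -1.36) and by 1.17 in B6 (-1.17). The 2 Cd37 probes disagreed on muscle. gWAT against muscle was 0.65 in NZO and -0.35 in B6 by the main probe, but 3.25 and 1.65 by the second.

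Cr2 did not pass in any of the tissue contrasts, and in NZO mice its level was -3.52 ± 0.66 in gWAT, -3.06 ± 1.27 in BAT and -2.88 ± 0.86 in muscle (SD, n = 4 each). In B6 gWAT it was -2.44 ± 0.52, in B6 BAT -2.31 ± 0.73 (n = 4 each) and in B6 muscle -3.70 ± 1.35 (n = 3). The limma adjusted p of these contrasts lay between 0.0759 and 0.872.

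Between tissues, a large part of all genes passed. For gWAT against BAT 5 of 7 members passed in NZO and 2 of 7 in B6, where 67.3% and 60.6% of all genes passed. For gWAT against muscle it was 5 of 7 and 3 of 7 members, and 70.9% and 70% of all genes. For BAT against muscle it was 3 of 6 members in each strain, and 64.4% and 62.7% of all genes. Among the calls against muscle, Ms4a1 in both strains and Pou2af1 in B6 were well above background on no muscle array used. These calls, that of Pou2af1 in NZO and that of Ms4a1 for gWAT against BAT in NZO entered through gWAT alone. The filter was the same for all genes. The median over all genes in these contrasts lay between -0.25 and 0.13, and the contrasts share arrays.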

How the data were processed

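RNA was hybridised to one-colour (Cy3) Agilent arrays, per the labels' protocols. The deposited scanner files hold the background-corrected processed signal as intensity per spot, from Feature Extraction 11.0.1.1 per the file headers and 9.1 per the submitters' processing notes. The authors' deposited series values are linear intensity, equal for all 37877 rows to the mean of the median spot signals of a transcript name (within 1e-04 of their value), with no centring found. They were used as an alternative.

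From the files, spots of a probe were averaged and log2 signal minus the array's 75th percentile was taken. For each gene the probe with the highest mean was used. A gene was tested where every array of 1 of the groups compared measured its probe. Tests used limma 3.58.1 in R 4.3.3 (lmFit, eBayes) with Benjamini-Hochberg adjustment over all genes tested and a threshold of 0.05. They were tested on simulated data. The number of arrays limits the precision. Same-numbered arrays were checked for pairing: of 4 pairs across strains none, and of 20 pairs across tissues 7, correlated above 0.1. Of 68 pairs across tissues with the same strain and other numbers, 17 did. These counts do not settle whether same-numbered arrays of different tissues share an animal. The fits are unpaired. The members, lists and tests were chosen with earlier results of these data known. Alternatives were other backgrounds, scalings, filters, probes, blocks and samples. No per-sample column was left unused. Members and listed genes were named by rule: all members, and up to 3 genes called in each direction of a list, with Ighm and Ptprc. Some listed genes are not reported here.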

Additional observations from a re-analysis of the deposited data

Results flagged for a closer look

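NZO gWAT 012 lay far from the other 3 arrays of its group, by Dixon's test, for Cd79b at 3.27, Ms4a1 at 2.25 and Pou2af1 at 0.84. The same held for Cd22 minus the median of the other B lineage genes, at 0.63. Of 43 groups of 4 arrays tested, 4 were marked, and chance marks about 1 in 20.

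The interaction of strain and tissue passed the threshold for 3 members. For BAT minus gWAT it was -1.80 for Cd79a, -2.19 for Cd79b and -1.20 for Cd37. For muscle minus gWAT it was -1.73 for Cd79a and -1.01 for Cd37. The Cd79b call was lost in 14 of 28 alternatives, and the Cd37 call for muscle minus gWAT in 1 of 28.

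The B6 muscle array that was left out held higher levels than the other 3 B6 muscle arrays for 6 genes by their main probe. Cd22 was at -0.90 on it, against -1.23 on the highest of the other 3. Cd79a was at -1.75 against -2.34, Cd79b at -1.0 against -2.04 and Ms4a1 at -4.21 against -5.62. Blk was at -2.48 against -3.14 and Pou2af1 at -3.53 against -4.44, and the second Cd37 probe was at -2.12 against -3.02. Its sum of adipocyte genes was 833, against 156 to 203 on the other 3, and the part of that in these values was not tested.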

How the results depend on the processing

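The higher Cd22 level in NZO kept its call under every alternative but the replicate block, with differences of 1.41 to 2.16 (gWAT), 1.29 to 1.94 (BAT) and 0.90 to 1.66 (muscle). Within slides that held both strains it was 2.46 and 1.91 (gWAT), 1.94 (BAT) and 1.62 (muscle). The array number was also fitted as a replicate block, for numbers that did not pair the arrays across strains. In BAT this left 0 members and 436 genes called by limma, with 1 member at an unadjusted p under 0.05. Cd22 was at 1.88 in that fit (limma adjusted p = 0.053). In muscle with array 011 the block left 0 members and 0 genes (limma; 1 member and 1027 genes unadjusted; Cd22 1.33, adjusted p = 0.898). In gWAT no such fit could be made, as the strains share 1 number, and there is no second Cd22 probe to try. As a random block across tissues it moved 1 of 9 counts of members called, to 4 for BAT against muscle in B6, against 3, through Pou2af1 (1.55, adjusted p = 0.0469).

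Among all genes in muscle, 2227 passed, against 1252 with centring on the median, 1370 with no filter and 1083 with array 011. Centring on the median moved the median of all genes in gWAT to 0.26, against -0.004, and the share of calls higher in NZO to 72.9%, against 50.4%. The share of calls higher in gWAT was 64.6%, against 39.9%, for gWAT against BAT in NZO. It was 66.7%, against 47.5%, for gWAT against muscle in NZO, and 55.2%, against 41.5%, for gWAT against BAT in B6. Without single arrays, members called ranged from 3 to 5 in gWAT (5 without NZO 012), 1 to 2 in BAT, 1 to 1 in muscle, 1 to 2 for muscle minus gWAT and 3 to 5 for BAT against muscle in B6 (5 without NZO gWAT 012). All genes called in muscle ranged from 987 to 1985, with 1411, 987 and 1016 without NZO 007, B6 010 and B6 009. Cd22 relative to other B lineage genes was 0.80 in muscle. The lists and bounds without NZO 012, the probes with shared sequence and the Cd22 scores without single arrays (0.16 to 1.41 in gWAT, 1.88 to 2.31 in BAT, 1.13 to 1.46 in muscle) were alternatives chosen after seeing the data.

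Some uncalled differences changed sign. In BAT these were Pou2af1 at 0.024 (quantile), 0.022 (median) and 0.063 (replicate block) and Cd79a at -0.21 (slide as a fixed block). In muscle, Cd79a was at -0.032, -0.037, -0.044 and -0.27 and Cd79b at -0.049, -0.011, -0.080 and -0.43 (normexp, series values, with 011, replicate block). There Cd37 was at -0.025, -0.045 and -0.065 (median, slide, block) and Cr2, at 0.83 in the reported fit, at -0.031 (series values). The Cd22 interaction BAT minus gWAT was 0.020 (quantile), that of Cd79a for muscle minus BAT -0.034 (median) and -0.15 (with 011). In B6 gWAT against BAT with median scaling, Cd79a was at 0.18 and Cr2 at 0.10. The cause was not tested.

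Leaving out single arrays gave Pou2af1 -0.16 to 0.041 in BAT and Cd37 -0.039 to 0.088 in muscle. For BAT minus gWAT it gave Cd22 -0.19 to 0.061 and Cr2 -0.14 to 0.89, for muscle minus gWAT Pou2af1 -0.73 to 0.67, and for muscle minus BAT Cd79a -0.069 to 0.21. In NZO, Cr2 ranged from -1.01 to 0.017 for gWAT against BAT and from -0.67 to 0.36 for BAT against muscle. In B6 gWAT against BAT, Cd79a ranged from -0.12 to 0.10, Cd79b from -0.16 to 0.21, Cr2 from -0.39 to 0.15 and Ms4a1 from -0.32 to 0.51. Of the other results on single members, 324 kept direction and call under alternatives other than leaving out an array, 8 gained a call and 5 lost it.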
